A study of Mus musculus with 128 samples.

Results

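The lung at 24 months was compared with the lung at 15 months in bulk RNA sequencing of 8 libraries, 4 per age, out of 128 libraries in the whole study. Libraries were taken by the age in their labels, and every gene with enough reads in the lung table entered the comparison. The study profiled 8 tissues from untreated male mice, wild-type on the C57BL/6J background, at 6, 15, 24 and 30 months, with 4 libraries per tissue and age. Tissue was frozen and pulverised whole, so each library mixes all cell types of the lung, and fewer cells of a type cannot be told apart from less RNA per cell. The labels number the libraries 1 to 4 within an age, the numbers used below, and do not say that each is a separate animal, so the p-values below measure the spread between these libraries.

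The lung is built of a thin alveolar epithelium of type 1 and type 2 cells on a dense capillary bed, conducting airways and vessels wrapped in smooth muscle, a fibroblast and collagen scaffold, and resident and circulating leukocytes. Heat shock proteins are chaperones that bind unfolded proteins, and their genes respond to heat and other stress through heat shock factors. Interferon gamma, secreted by T cells and natural killer cells, turns on immunity GTPases, the chemokines Cxcl9 and Cxcl10, and the machinery that presents antigen on class I and class II molecules.

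The 16 lung libraries held 11.8 to 21.3 M reads recovered from the deposited values (M, 1e6), and the 8 compared here 11.8 to 19.5 M. The median rank correlation of a library with the other lung libraries lay between 0.976 and 0.989, mitochondrial messengers took 3.16% to 4.39% of reads, and no 2 libraries of the same age agreed within sampling noise. Markers of lung were high in all 8 libraries: Sftpc, the surfactant protein of type 2 cells, was read at 144100 or more normalised reads, Scgb1a1 of club cells at 300800 or more and Ager of type 1 cells at 22560 or more. Values below are normalised reads as deposited, and a log2 change is 24 minus 15 months on log2(value + 1). A gene is called where its adjusted p, from limma with Benjamini-Hochberg adjustment over 17112 genes, is under 0.05.

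At 24 months 540 genes were called higher and 439 lower than at 15 months, which is 3.16% and 2.57% of the 17112 tested and 5.72% together. At an unadjusted p under 0.05 the counts were 2126 higher and 2046 lower. Genes called higher moved further: their median log2 change was 0.71, and 162 rose by at least 1, against a median of -0.42 and 43 genes that fell by at least 1. The 4 and 4 libraries did not overlap for 938 of the 979 called genes, against 17.8% of all genes tested. Calls leaned on single libraries. Without 24-month library 2 the counts were 64 higher and 80 lower, without 24-month library 1 they were 162 and 204, and without 15-month libraries 1, 2 and 3 they were 187 and 144, 153 and 139, and 245 and 223. Of 135 called genes followed by name, 37 kept their call without each of these 8 libraries in turn, and none changed direction. Calls were lost by 98 of the 135 without 24-month library 2 and by 64, 20 and 30 without 24-month libraries 1, 3 and 4, and by 65, 75, 52 and 36 without 15-month libraries 1 to 4.

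Gene lists sorted into opposite directions. Chaperone, endoplasmic reticulum stress and smooth muscle lists had the largest shares of members called lower, and class I, class II, interferon gamma, T cell and ribosomal protein lists the largest shares called higher. Over all genes tested 8408 of 17112 log2 changes were positive, so the list medians below can be read against 0. Each count of called members below is to be read against the 3.16% of all genes called higher and the 2.57% called lower.

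**Figure D1:**
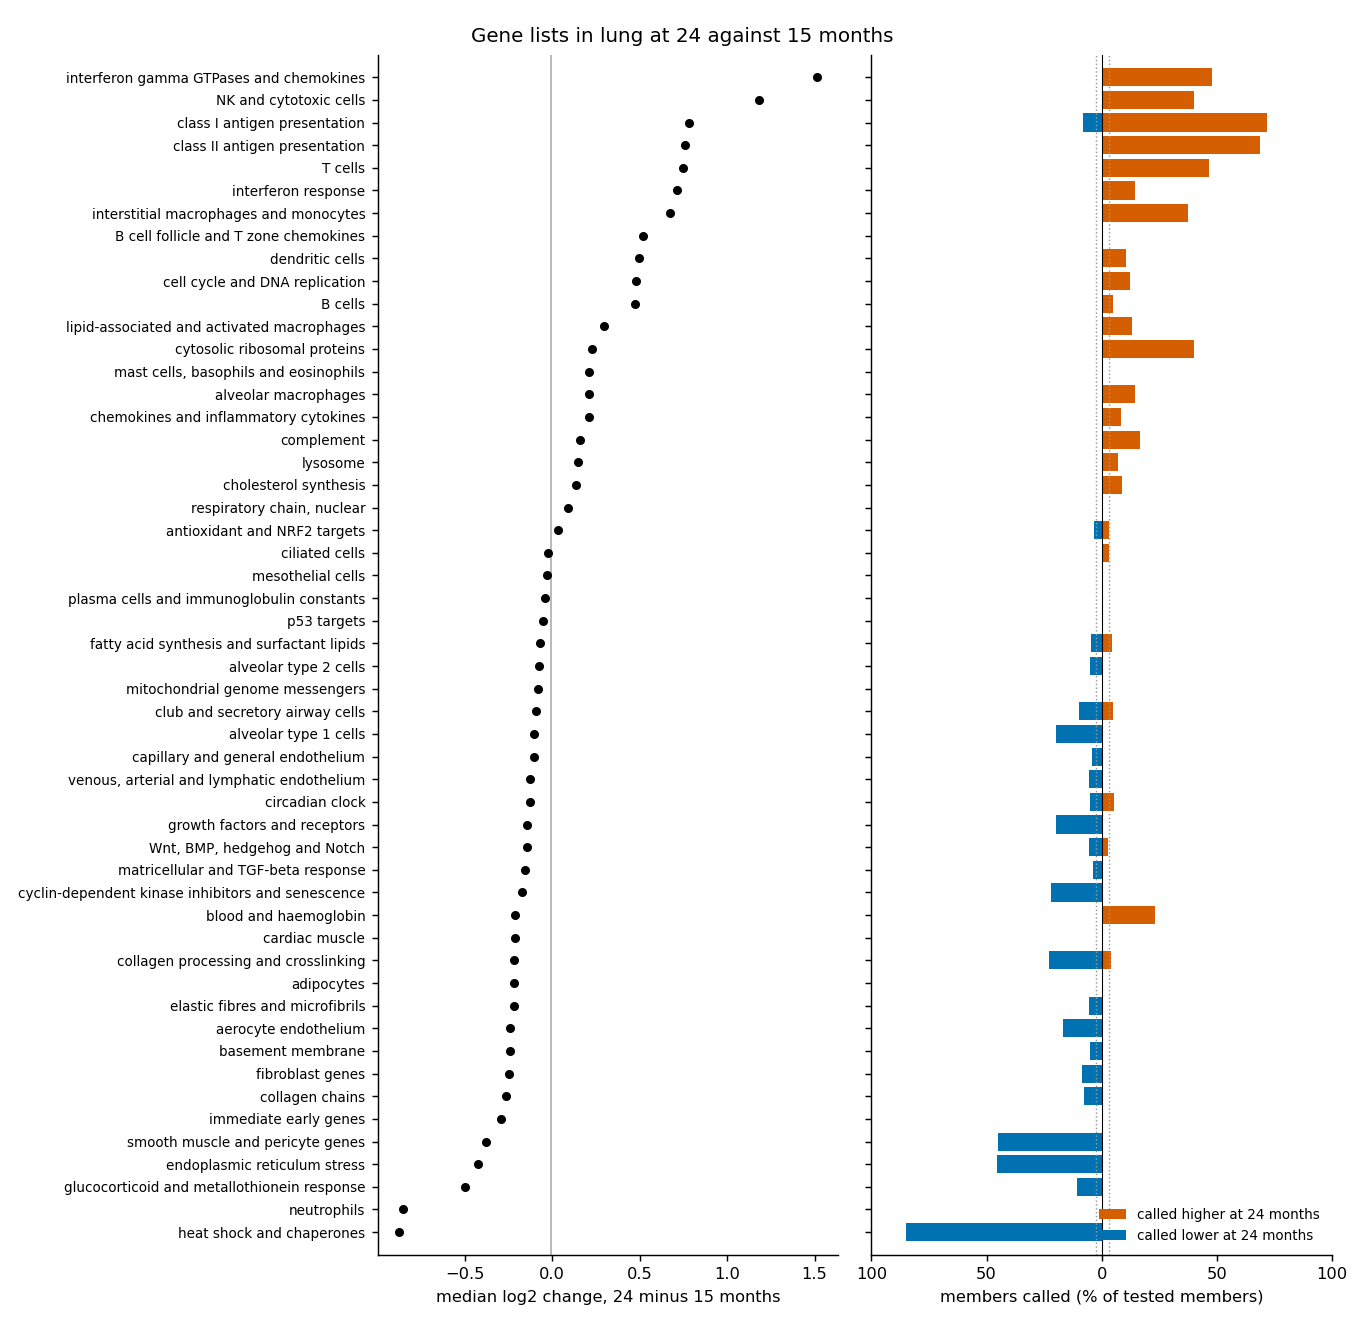
Gene lists with 12 or more tested members, ordered by the median log2 change of their members at 24 against 15 months (left, with the median of all genes as a grey line). Bars on the right give the percentage of members called higher (orange) or lower (blue), with dotted lines at the 3.16% and 2.57% of all genes. Heat shock and chaperone genes stand at the bottom with 17 of 20 members called lower, and interferon gamma GTPases and chemokines at the top with 12 of 25 called higher.

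Chaperone genes fell together. Of 20 tested members of the heat shock list, 17 were called lower at 24 months and none higher, against 2.57% of all genes called lower, and the median log2 change was -0.88. Every 24-month library lay below every 15-month library for 17 of the 20, which are the called members without Hspa1a and with Cryab. Over all genes tested, groups did not overlap, in either direction, for 17.8%. The summed level of the list was 118400 to 170300 normalised reads per library at 15 months and 58240 to 77300 at 24 months, with 6-month libraries at 63830 to 132100 and 30-month libraries at 65990 to 74330. The 3 members without a call, named after their values were seen, were Dnajb1 (log2 change -0.66, limma adjusted p = 0.16), Dnajb4 (-0.45, 0.0548) and the small chaperone Cryab (-0.25, 0.135).

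Upstream sequences are shown for the 3 chaperone genes with the lowest log2 changes among the genes named by rule, as printed from RefSeq promoters of GRCm38.p6, a build older than the GRCm39 of the submitters' processing notes. Each is the 250 bases before the gene's start, 5′ to 3′ on the gene's own strand, with a pair of facing heat shock half-sites in capitals (GAANNTTC or TTCNNGAA, each its own reverse complement). Hspb1 lies on the plus strand at chr5:135887669-135887918, Hsph1 on the minus strand at chr5:149636337-149636586 (the first of its listed starts) and Hspa1b on the minus strand at chr17:34959239-34959488.
Hspb1: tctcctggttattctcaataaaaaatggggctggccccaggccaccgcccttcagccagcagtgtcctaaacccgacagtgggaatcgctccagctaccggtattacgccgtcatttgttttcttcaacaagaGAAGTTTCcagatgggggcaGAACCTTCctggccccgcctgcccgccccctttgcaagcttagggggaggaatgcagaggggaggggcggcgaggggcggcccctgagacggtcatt
Hsph1: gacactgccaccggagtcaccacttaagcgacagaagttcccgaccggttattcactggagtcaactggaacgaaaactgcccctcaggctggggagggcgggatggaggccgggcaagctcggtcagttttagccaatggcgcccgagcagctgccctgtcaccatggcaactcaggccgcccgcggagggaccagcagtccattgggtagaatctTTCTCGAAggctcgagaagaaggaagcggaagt
Hspa1b: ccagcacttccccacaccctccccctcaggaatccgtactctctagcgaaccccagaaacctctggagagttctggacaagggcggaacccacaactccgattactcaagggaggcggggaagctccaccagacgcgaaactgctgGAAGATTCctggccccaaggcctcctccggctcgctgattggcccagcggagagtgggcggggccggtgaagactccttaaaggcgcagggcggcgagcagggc

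Such a pair stood in the 250 bases of 7 of the 16 heat shock list members with a listed promoter (43.8%) and of 10.3% of the 12362 tested genes with one. The longer element of 3 units (GAANNTTCNNGAA or TTCNNGAANNTTC) stood in 1 of the 16, Hspe1, and in 0.283% of the tested genes. A match is a description of the letters and not of binding.

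Hspb1, the small heat shock protein Hsp25, had the smallest p of all genes called lower. It was read at 5333, 4757, 2779 and 4044 in 15-month libraries 1 to 4 and at 996, 1173, 916 and 984 in 24-month libraries 1 to 4. The lowest 15-month library was above the highest 24-month library, and the gene had the smallest p in the list (log2 change -2.02 ± 0.21 SE, limma adjusted p = 0.000879). Hsph1, which encodes the nucleotide exchange factor Hsp110, was read at 4751, 6286, 3256 and 3084 at 15 months and at 1204, 624, 1255 and 1441 at 24 months (log2 change -1.95 ± 0.37 SE, limma adjusted p = 0.0117). Its groups did not overlap, and 24-month library 2 was the lowest of all. The processed copy Hsp25-ps1, named after its values were seen, was also lower at 24 months (log2 change -1.45, limma adjusted p = 0.00976), and reads of Hspb1 and its copy cannot be told apart with certainty.

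Hspa1b, an inducible Hsp70, was read in the 15-month libraries at 4369, 7083, 1488 and 824, while the 24-month libraries held 499, 237, 311 and 392 (log2 change -2.84 ± 0.59 SE, limma adjusted p = 0.0161). Both ages were separate, as the naming rule required, with 15-month libraries 1 and 2 several times above 3 and 4. Its near-identical neighbour Hspa1a, named after its values were seen, was read at 3081, 3106, 745 and 356 and then 389, 239.9, 260.2 and 302 (log2 change -2.11 ± 0.56 SE, limma adjusted p = 0.0404), and 15-month library 4 fell within the 24-month range. Reads of these copies can be assigned to either gene, so each of their values is uncertain. Without 15-month library 1 or 24-month library 2 Hspa1b lost its call (highest adjusted p = 0.0626).

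The Hsp90 genes moved by less than Hspb1, Hsph1 and Hspa1b, and with less spread between libraries. Hsp90ab1, the constitutive Hsp90, was read at 33830, 36220, 28260 and 30210 at 15 months and at 16020, 14640, 14950 and 16220 at 24 months (log2 change -1.05 ± 0.14 SE, limma adjusted p = 0.00297). Hsp90aa1, its inducible form, went from 17980, 21050, 14150 and 15720 to 7239, 6567, 6940 and 8510 (log2 change -1.23 ± 0.17 SE, limma adjusted p = 0.00316). For both genes the 24-month libraries lay close together and far below the 15-month ones. Ahsa1, which activates the Hsp90 ATPase, fell from 2122, 2298, 1865 and 2079 to 1317, 1212, 1313 and 1452 (log2 change -0.66 ± 0.10 SE, limma adjusted p = 0.00387), and its relative Ahsa2 was read at 869, 1229, 691 and 649 and 366, 281, 378 and 432 (log2 change -1.21 ± 0.25 SE, limma adjusted p = 0.0146). Hspa8, the constitutive Hsp70, fell by 0.90 (limma adjusted p = 0.0284) and its co-chaperone Dnaja1 fell by 1.03 (limma adjusted p = 0.0352), both named after their values were seen.

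The count of chaperone genes called lower ranged from 8 without 24-month library 2 to 18 without 15-month library 4, and it was 11 without 15-month library 1 or 2. It was 1 without both 24-month libraries 1 and 2, and 1 without both 15-month libraries 1 and 2. Hspb1, Hsp90aa1, Hsp90ab1 and Ahsa1 kept their calls without each of the 8 libraries in turn, whereas Hsph1 (highest adjusted p = 0.05) and Ahsa2 (0.0609) lost theirs without 24-month library 2, Hspa8 (0.105) without 15-month libraries 1, 2 or 3 or 24-month libraries 1 or 2, and Dnaja1 (0.127) and Hspa1a (0.121) without those and 24-month library 3, Hspa1a also without 24-month library 4.

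Chaperones of the endoplasmic reticulum fell as well, by less. In the endoplasmic reticulum stress list 10 of 22 tested members were called lower and none higher, with a median of -0.42. Hspa5, the reticulum's Hsp70, was read at 10670, 13440, 11340 and 11170 at 15 months and 6314, 6810, 7455 and 9123 at 24 months (log2 change -0.66 ± 0.13 SE, limma adjusted p = 0.0143). Hsp90b1, the reticulum's Hsp90, was read at 16270, 16610, 15550 and 15570 and then at 9992, 10770, 10700 and 12050 (log2 change -0.56 ± 0.09 SE, limma adjusted p = 0.00662). In neither gene did the ages overlap. Pdia6, a disulfide isomerase, and Creld2, a stress-induced reticulum protein, changed by -0.57 ± 0.09 SE (limma adjusted p = 0.00694) and -0.64 ± 0.12 SE (limma adjusted p = 0.00976). The list's count dropped to 3 without 24-month library 2, to 4 without 15-month library 2 or 24-month library 1, to 5 without 15-month library 1 and to 6 without 15-month library 4. Hsp90b1, Pdia6 and Creld2 kept their calls throughout, and Hspa5 lost its own without 24-month library 2 (adjusted p = 0.058).

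A gene of the opposite direction had the smallest p of all genes called higher. Rbm3, an RNA-binding protein whose messenger is known to increase on cooling, was read at 1988, 2110, 2015 and 1719 at 15 months and at 3773, 4230, 3550 and 3343 at 24 months (log2 change 0.93 ± 0.11 SE, limma adjusted p = 0.0015). The 24-month libraries all lay above the 15-month ones, and the 30-month libraries, at 4232, 4611, 4121 and 4564, stood in the same range or higher. Cirbp, the related cold-inducible RNA-binding protein, named after its values were seen, was read at 618, 539, 699 and 704 and 958, 1378, 1078 and 876 (log2 change 0.73 ± 0.20 SE, limma adjusted p = 0.0412). Rbm3 kept its call without each of the 8 libraries in turn, and Cirbp lost its call without any one of the 15-month libraries or 24-month libraries 1, 2 or 3 (highest adjusted p = 0.148).

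**Figure D2:**
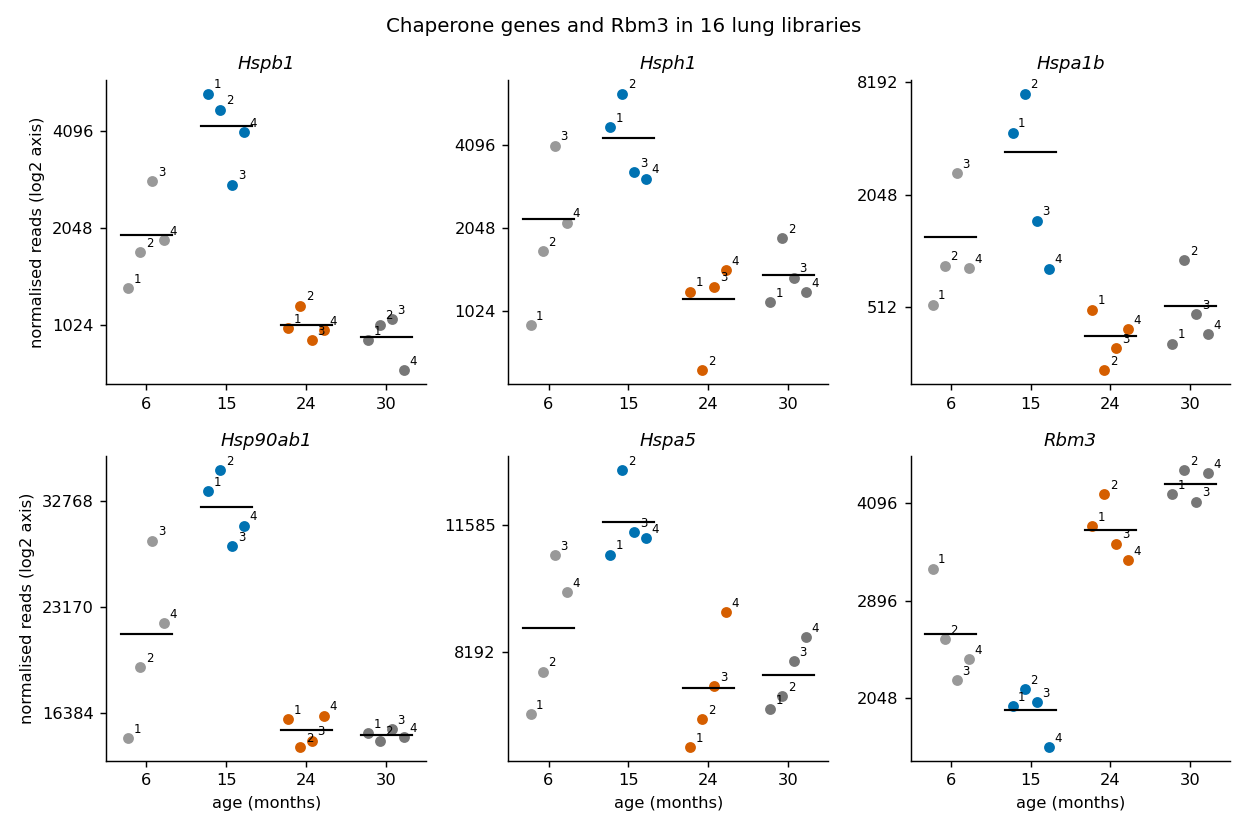
Normalised reads (log2 axis) of 5 chaperone genes and Rbm3 in the 16 lung libraries by age in months. Points are single libraries with their number, blue at 15 months, orange at 24 months and grey at 6 and 30 months, and short lines are means of 4. The means of all 5 chaperone genes are highest at 15 months, with Hspb1 between 2779 and 5333 there and between 916 and 1173 at 24 months, and the mean of Rbm3 is lowest at 15 months.

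Other genes among the 12 lowest log2 changes, over called genes with a mean of 50 or more reads and no overlap, belonged to no chaperone list. Npr3, the natriuretic peptide clearance receptor, was read at 4352, 4681, 4748 and 5775 and then at 2333, 1035, 1652 and 1271 (log2 change -1.70 ± 0.31 SE, limma adjusted p = 0.00994). Slc5a3, the myo-inositol transporter of osmotic stress, went from 441, 493, 334 and 274 to 198, 105, 141 and 136 (log2 change -1.40 ± 0.26 SE, limma adjusted p = 0.00994). For both, each 24-month library lay below each 15-month library. Xirp1 and Flnc, actin-binding proteins of muscle, were read at 96.2, 67.9, 52.8 and 129.5 and 439.6, 324, 427 and 460 at 15 months and at 16.8, 44.1, 25.8 and 23.5 and 142, 149.9, 213 and 152 at 24 months. Their changes were -1.62 ± 0.31 SE (limma adjusted p = 0.0124) and -1.33 ± 0.19 SE (limma adjusted p = 0.00387). Frmd5 fell by 1.19 (limma adjusted p = 0.00815) and the membrane protein gene Tmem252 by 1.29 (limma adjusted p = 0.0177). Tmem252 lost its call without 15-month library 1 or 2 or 24-month library 2 (highest adjusted p = 0.0578), and the other 5 kept theirs without each library in turn.

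Contractile genes of smooth muscle fell in the 24-month lung. Of 20 members of the smooth muscle and pericyte list, 9 were called lower and none higher, and the median log2 change was -0.38. Groups did not overlap for 12 of the 20, against 17.8% of all genes tested. The list's summed level was 33470 to 37300 normalised reads at 15 months and 25180 to 31310 at 24 months. Acta2, smooth muscle actin, was read at 4348, 3872, 4636 and 4510 at 15 months and at 2250, 2635, 2976 and 2389 at 24 months (log2 change -0.77 ± 0.13 SE, limma adjusted p = 0.00869). Cnn1, the actin-binding calponin of smooth muscle, was read at 1343, 1094, 1360 and 1462 and 510.4, 652, 793 and 642 (log2 change -1.03 ± 0.13 SE, limma adjusted p = 0.00174). Both genes had separate groups, with the highest 24-month library, replicate 3, still below the lowest 15-month one. Actg2, the enteric smooth muscle actin, changed from 579.6, 451, 555 and 646 to 234, 289.9, 319 and 243 (log2 change -1.04 ± 0.14 SE, limma adjusted p = 0.00298), and Des, the intermediate filament desmin, from 2913, 2696, 2926 and 3134 to 1709, 1912, 2218 and 1879 (log2 change -0.60 ± 0.11 SE, limma adjusted p = 0.00989).

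Other members gave smaller or no called changes. Myh11, the smooth muscle myosin heavy chain, named after its values were seen, was read at 4160, 3690, 4324 and 3975 and 2626, 3169, 3936 and 3197, with 24-month library 3 inside the 15-month range (log2 change -0.33 ± 0.12 SE, limma adjusted p = 0.0907). Acta2, Cnn1, Actg2 and Des kept their calls without each of the 8 libraries in turn. The list's count was 4 without 24-month library 1 or 2, 5 without 15-month library 3 and 6 without 15-month library 1. At the other ages Cnn1 was read at 1207, 1591, 1363 and 1315 at 6 months and at 605, 562, 631 and 472 at 30 months. Cardiac muscle markers, which mark the muscle sleeve of pulmonary veins and any attached heart, had no member called by limma (none higher and 3 lower at an unadjusted p under 0.05, none with edgeR, and 2 lower with DESeq2 or limma-voom), and their summed level was 14970 to 17390 at 15 months and 8099 to 17050 at 24 months. Skeletal muscle markers had none called by limma, edgeR or DESeq2, and none at an unadjusted p under 0.05, and summed to 343 to 401 and 246 to 345.

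Several genes that process collagen fell, while most collagen chains did not pass the test. In the processing list 6 of 26 members were called lower and 1, Colgalt1, higher (0.20, limma adjusted p = 0.0404, named after its value was seen), and the median was -0.22. Colgalt1 lost its call without any one of the 8 libraries of these ages except 24-month library 3 (at most 0.109) and without a filter (0.0729). Serpinh1, the collagen-specific chaperone Hsp47 and itself a heat shock gene, was read at 6872, 7035, 6021 and 6876 at 15 months and at 3117, 2849, 3385 and 2932 at 24 months (log2 change -1.13 ± 0.15 SE, limma adjusted p = 0.00316). P4ha1, a catalytic subunit of prolyl 4-hydroxylase, went from 2876, 3296, 2257 and 2392 to 1232, 975, 1256 and 1324 (log2 change -1.17 ± 0.16 SE, limma adjusted p = 0.00316). Each 24-month library held less than every 15-month library for both genes. The lysyl hydroxylases Plod1 and Plod2 changed by -0.62 ± 0.12 SE (limma adjusted p = 0.0114) and -0.48 ± 0.09 SE (limma adjusted p = 0.00994). These 4 genes kept their calls without each library in turn, and the list's count stayed between 4 and 6, at 4 without 15-month library 1 or 24-month library 1 or 2.

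Of 26 collagen chain genes, 2 were called lower and none higher, against 2.57% of all genes called lower, with a median of -0.27. Col4a1, a chain of basement membrane collagen, was read at 12590, 12200, 12340 and 12240 and 9485, 9300, 10230 and 9739 (log2 change -0.35 ± 0.07 SE, limma adjusted p = 0.0181), without overlap. Col5a1, a fibril-regulating chain, changed by -0.49 ± 0.14 SE with limma adjusted p = 0.0498, just inside the threshold. Col1a1 and Col3a1, the main fibrillar chains, were read at 2201, 1722, 2610 and 2247 and 3420, 2936, 4597 and 4246 at 15 months and 1924, 2138, 1816 and 1170 and 3329, 3993, 3246 and 2451 at 24 months. Both genes overlapped between ages (-0.34 ± 0.25 SE with limma adjusted p = 0.427, and -0.22 ± 0.26 SE with 0.633). Eln, elastin, differed by 0.03 ± 0.20 SE (limma adjusted p = 0.952). At 30 against 6 months 19 of the 26 collagen genes were called lower, against 8.64% of all genes in that comparison, with a median of -0.52. Col4a1 lost its call without 15-month library 1 or 24-month libraries 1 or 2 (highest adjusted p = 0.0703), and Col5a1 without any one of the 8 libraries (highest 0.12).

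**Figure D3:**
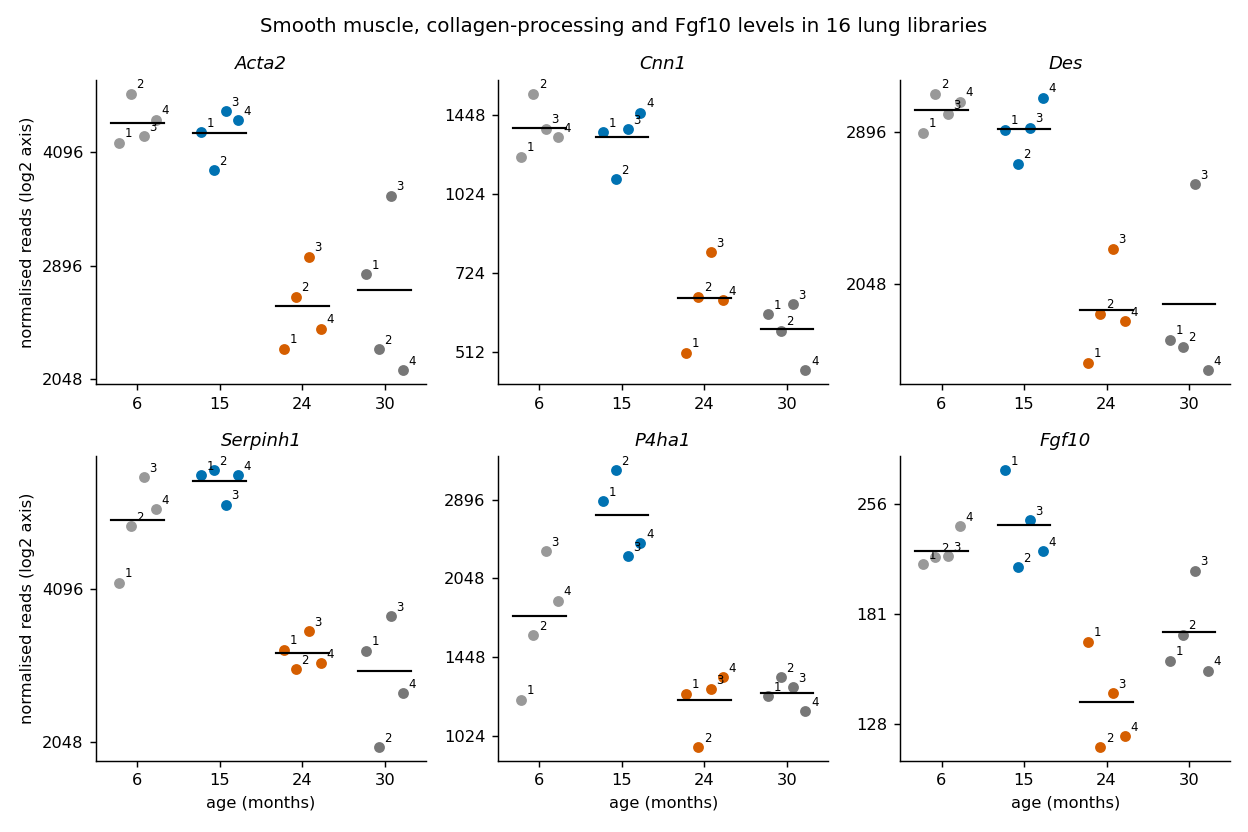
Normalised reads (log2 axis) of smooth muscle genes (Acta2, Cnn1, Des), collagen-processing genes (Serpinh1, P4ha1) and the growth factor gene Fgf10 in the 16 lung libraries by age in months. Points are libraries with their number, blue at 15, orange at 24 and grey at 6 and 30 months, and short lines are means of 4. For all 6 genes the 24-month libraries lie below the 15-month libraries, as for Cnn1 with 510.4 to 793 against 1094 to 1462.

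Some growth factor and receptor genes fell. In the growth factor and receptor list 7 of 35 members were called lower and none higher, against 2.57% of all genes called lower. Fgf10, a fibroblast signal to the alveolar epithelium, was read at 284, 209.6, 243 and 220.3 at 15 months and at 166, 119, 141 and 123 at 24 months (log2 change -0.80 ± 0.13 SE, limma adjusted p = 0.00556). Pdgfra, the receptor of alveolar fibroblasts, was read at 4133, 3755, 4178 and 4366 and 3310, 3014, 3362 and 2677 (log2 change -0.41 ± 0.09 SE, limma adjusted p = 0.0212), and Igf1r, the receptor of insulin-like growth factor, at 2180, 2261, 2088 and 2047 and 1586, 1443, 1607 and 1711 (log2 change -0.43 ± 0.07 SE, limma adjusted p = 0.00433). None of the 3 overlapped between ages. Fgf2 changed by -0.58 ± 0.14 SE (limma adjusted p = 0.0248). Fgf10 and Igf1r kept their calls without each library, while Pdgfra lost its call without 15-month libraries 1 or 3 or 24-month library 2 and Fgf2 without 15- or 24-month libraries 1 or 2 (highest adjusted p = 0.0764 and 0.089). The list's count was 2 without 15-month library 1 or 24-month library 2, 3 without 15-month library 2 or 3, and 4 without 24-month library 1 or 4.

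The cyclin-dependent kinase inhibitor and senescence list had 4 of 18 members called lower and none higher, against 2.57% of all genes called lower. Those 4 were Mmp3, a matrix protease (540.3, 519, 589 and 535 at 15 and 251, 306, 335 and 315 at 24 months, log2 change -0.86 ± 0.13 SE, limma adjusted p = 0.00434), the insulin-like growth factor binding proteins Igfbp3 (-0.67, limma adjusted p = 0.0285) and Igfbp6 (-0.50, 0.0298), and the kinase inhibitor Cdkn1c (-0.41, 0.0428). Except for Mmp3, each lost its call without at least 6 of the 8 libraries (highest adjusted p = 0.0849, 0.0981 and 0.152), and the count was 1 without 15-month library 1 or 2 or 24-month library 1 or 2, and 2 without 15- or 24-month library 4. Cdkn2a, the p16 and Arf gene, was read at 8.75, 8.67, 9.27 and 6.05 and 9.22, 12.5, 16.3 and 16.8, with overlap (0.66 ± 0.36 SE, limma adjusted p = 0.272). Cdkn1a, the p21 gene, was read at 1737, 1798, 1268 and 1058 and 874, 995, 818 and 1106 (log2 change -0.60 ± 0.23 SE, limma adjusted p = 0.125), with 24-month library 4 inside the 15-month range. None of 24 p53 targets was called by limma at 24 against 15 months, and at an unadjusted p under 0.05 there was 1 higher and 1 lower. The edgeR, DESeq2 and limma-voom fits called none of them either.

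Genes induced by interferon gamma rose. Of 25 tested GTPases and chemokines of this response, 12 were called higher and none lower, against 3.16% of all genes called higher, and the median log2 change was 1.52. In the broader interferon response list 6 of 41 members were called higher and none lower, with a median of 0.72. The summed level of the interferon gamma list was 13720 to 15970 normalised reads at 15 months, and at 24 months it was 39890, 91220, 21580 and 24540 in replicates 1 to 4. All 24-month libraries stood above all 15-month libraries, with replicate 2 the highest and replicate 1 next.

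Upstream sequences are printed for 3 of these genes, the 250 bases before the start from RefSeq GRCm38.p6, with the interferon-stimulated response element in capitals (GAAA and GAAA with 2 bases between them, on either strand). Igtp is on the plus strand at chr11:58199306-58199555, Tgtp1 on the minus strand at chr11:48992247-48992496 and Cxcl10 on the minus strand at chr5:92348890-92349139.
Igtp: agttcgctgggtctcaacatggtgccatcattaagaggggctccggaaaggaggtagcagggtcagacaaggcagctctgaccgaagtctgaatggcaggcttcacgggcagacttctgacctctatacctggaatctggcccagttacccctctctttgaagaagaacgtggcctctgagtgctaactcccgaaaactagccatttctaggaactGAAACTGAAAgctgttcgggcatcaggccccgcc
Tgtp1: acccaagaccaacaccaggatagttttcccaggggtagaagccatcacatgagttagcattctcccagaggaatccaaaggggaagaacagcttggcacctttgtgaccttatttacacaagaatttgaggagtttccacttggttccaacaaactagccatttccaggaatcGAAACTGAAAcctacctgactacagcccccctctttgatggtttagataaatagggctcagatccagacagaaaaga
Cxcl10: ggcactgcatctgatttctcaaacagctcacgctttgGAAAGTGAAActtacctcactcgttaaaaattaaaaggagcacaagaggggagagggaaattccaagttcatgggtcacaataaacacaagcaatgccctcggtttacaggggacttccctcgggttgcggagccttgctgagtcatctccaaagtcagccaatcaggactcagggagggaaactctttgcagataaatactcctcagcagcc

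The element stood in 12 of the 15 list members with a listed promoter (80%), in 14 of 29 members of the broader interferon list (48.3%), in 3 of 20 class I genes (15%) and in 2.79% of the 12362 tested genes with a promoter. Of the called members with a promoter, it stood in 5 of 7, 1 of 4 and 3 of 16 in the same order of lists. The X box, an element of class II promoters (AGNAACAG), stood in 0 of 12 class II genes with a promoter, 8 of them called. It stood in 5.1% of the tested genes. Such matches describe the letters only.

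Cxcl9, a chemokine that attracts activated T cells, was read at 41.6, 57.8, 22.2 and 39.9 at 15 months and at 529, 815, 76.4 and 79.6 at 24 months (log2 change 2.54 ± 0.63 SE, limma adjusted p = 0.0303). Cxcl10, which shares its receptor, was read at 35.0, 18.8, 24.1 and 27.8 and 207, 616, 60.1 and 58.3 (log2 change 2.45 ± 0.61 SE, limma adjusted p = 0.0298). In both genes the 24-month libraries were all above the 15-month ones, as the naming rule required. Replicates 1 and 2 of that age stood well above 3 and 4. Tgtp1, an immunity GTPase, was read at 212, 338, 329 and 239.7 and 1513, 3999, 499.9 and 585 (log2 change 2.07 ± 0.51 SE, limma adjusted p = 0.0301), and Iigp1, a GTPase that attacks parasite vacuoles, at 476, 582, 640.3 and 692 and 2923, 8278, 1031 and 1164 (log2 change 1.97 ± 0.52 SE, limma adjusted p = 0.0371). Igtp, another immunity GTPase, named after its values were seen, was read at 782, 681, 698 and 781 and 2520, 6423, 1171 and 1487 (log2 change 1.65 ± 0.43 SE, limma adjusted p = 0.0367). Replicate 2 was the highest 24-month library for each of these 5 genes. Tgtp1 and its near-identical copy Tgtp2 (1.59, limma adjusted p = 0.042, named after its values were seen) can share reads, so their split is uncertain.

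Zbp1, which binds left-handed DNA and RNA, was read at 134, 228, 196 and 191 at 15 months and 658, 1923, 342 and 774 at 24 months (log2 change 2.04 ± 0.48 SE, limma adjusted p = 0.0258). Ifit3, an antiviral interferon-induced gene, was read at 787, 841, 1154 and 1359 and 1678, 4119, 1558 and 1855 (log2 change 1.06 ± 0.29 SE, limma adjusted p = 0.0418). Neither overlapped between ages. Ifng, interferon gamma itself, was at low levels, 2.19, 1.45, 0 and 4.84 at 15 months and 14.2, 65.8, 6.87 and 8.97 at 24 months (log2 change 2.69 ± 0.64 SE, limma adjusted p = 0.0262), with replicate 2 far above the other 3.

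Calls in this group leaned on single libraries of both ages. In the interferon gamma list none was called without 24-month library 1 or 2 or 15-month library 1, 2 or 3, and 2 were called without 15-month library 4, while 20 were called without 24-month library 3 and 16 without 24-month library 4. The broader list had none called without 15-month library 1 or 2 or 24-month library 1 or 2, 1 without 15-month library 3, 3 without 15-month library 4 and 14 without 24-month library 3. Log2 changes stayed positive in each case, from 1.92 to 3.06 for Cxcl9, whose highest adjusted p was 0.105, and from 1.16 to 1.98 for Igtp, with 0.105. Zbp1 and Ifng went to 0.0921 and 0.0911 at most. With other tools and filters the first list had 6 to 20 members called and the broader list 3 to 20, lowest without a filter on low genes and highest with DESeq2.

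Antigen presentation genes rose on both arms. In the class I list 18 of 25 members were called higher with a median of 0.79, and the 2 called lower, named after their values were seen, were the reticulum chaperones Calr (-0.41, limma adjusted p = 0.0352) and Pdia3 (-0.30, 0.0407). Calr lost its call without any one of the 8 libraries of these ages except 24-month library 4 (at most 0.0913) and without a filter, and Pdia3 without any one of the 8 (at most 0.104), with TMM rescaling, without a filter and with the replicate block (0.0544). In the class II list 11 of 16 were called higher and none lower, with a median of 0.76. H2-K1, a classical class I heavy chain, was read at 18270, 16730, 16060 and 16850 at 15 months and at 35140, 43920, 23890 and 25980 at 24 months (log2 change 0.88 ± 0.18 SE, limma adjusted p = 0.0143). Psmb8, an immunoproteasome subunit, was read at 1097, 1126, 1109 and 1172 and 2495, 3726, 1658 and 1984 (log2 change 1.06 ± 0.22 SE, limma adjusted p = 0.0163). H2-Aa, a class II alpha chain, was read at 8126, 7624, 9127 and 8347 and 16750, 20030, 11740 and 11200 (log2 change 0.81 ± 0.16 SE, limma adjusted p = 0.0133), and Cd74, the invariant chain that escorts class II, at 24630, 22650, 24790 and 24450 and 46130, 58140, 31670 and 31300 (log2 change 0.74 ± 0.18 SE, limma adjusted p = 0.0273). For all 4 the 24-month libraries lay above the 15-month ones, with replicate 2 highest and replicate 1 next.

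H2-M2, a class Ib gene, had the largest ratio among presentation genes named by rule, from 24.1, 20.2, 30.6 and 18.2 to 146, 93.3, 49.0 and 118 (log2 change 1.998 ± 0.46 SE, limma adjusted p = 0.0219). H2-Q4, H2-M3 and H2-Eb2 changed by 1.05, 0.84 and 1.52 (limma adjusted p = 0.0177, 0.0199 and 0.0194). Class I genes resemble one another closely, so reads may be split among them. The class I count was 0 without 24-month library 2, 2 without 15-month library 2, 3 without 24-month library 1, 4 without 15-month library 3 and 7 without 15-month library 1. The class II count was 1 without 24-month library 1 or 2, 2 without 15-month library 2 and 4 without 15-month library 1 or 3. Highest adjusted p-values were 0.0531 for H2-K1, 0.0544 for Psmb8, 0.05 for H2-Aa, 0.0921 for Cd74 and 0.0738 for H2-M2.

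Of the 12 genes named by rule for the largest increases, 4 (Cd300e, Adgre4, S1pr5 and Treml4) are known from patrolling monocytes, a grouping made after the values were seen and not tested as a list. Cd300e, an activating receptor of monocytes, was read at 67.8, 40.5, 54.7 and 65.4 at 15 months and at 246, 252, 309 and 309 at 24 months (log2 change 2.29 ± 0.46 SE, limma adjusted p = 0.0146). Adgre4, an adhesion receptor of the same cells, was read at 108, 121, 97.3 and 140.4 and 475, 429, 527 and 807 (log2 change 2.22 ± 0.45 SE, limma adjusted p = 0.0148), and Treml4 at 130.1, 140.2, 91.7 and 117 and 419, 412, 498 and 594 (log2 change 1.997 ± 0.43 SE, limma adjusted p = 0.0181). Each gene separated the ages fully, which the naming rule required. Unlike for Cxcl9, the 24-month libraries 3 and 4 were at or above 1 and 2. Spn, the leukocyte sialophorin CD43, named after its values were seen, was read at 503, 525, 482 and 512 and 1414, 1469, 1636 and 1915 (log2 change 1.66 ± 0.31 SE, limma adjusted p = 0.0115). S1pr5, a sphingosine phosphate receptor of patrolling monocytes and natural killer cells, went from 48.1, 34.7, 38.0 and 67.8 to 181, 203, 205 and 215 (log2 change 2.12 ± 0.40 SE, limma adjusted p = 0.0117), and Smpdl3b, a lipid phosphodiesterase, from 105, 95.4, 109 and 95.6 to 363, 428, 403 and 317 (log2 change 1.88 ± 0.41 SE, limma adjusted p = 0.019).

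Cx3cr1 and Fcgr4, a chemokine receptor and an antibody receptor of these monocytes named after their values were seen, changed by 1.84 ± 0.48 SE (limma adjusted p = 0.0358) and 1.40 ± 0.38 SE (limma adjusted p = 0.0409). Ace, which these monocytes share with the capillary endothelium, was read at 23070, 24850, 23710 and 23010 and 23410, 19870, 26820 and 27150 and did not pass the test (log2 change 0.03 ± 0.12 SE, limma adjusted p = 0.904). Adgre4, S1pr5 and Spn kept their calls without each of the 8 libraries. Cd300e and Treml4 reached adjusted p-values of 0.05 and 0.054 without 24-month library 2, Smpdl3b reached 0.0702 without 15- or 24-month library 2, and Cx3cr1 and Fcgr4 were lost without 7 of the 8 libraries (highest 0.101 and 0.147), all but 15-month library 4 for Cx3cr1 and all but 24-month library 3 for Fcgr4.

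In the interstitial macrophage and monocyte list 9 of 24 members were called higher and none lower, with a median of 0.67, and the count fell to 3 without 24-month library 2 and to 6 without 15-month library 2. C1qa, a chain of the first complement component made by macrophages, was read at 820.2, 809.5, 858 and 799 and 1695, 1640, 1098 and 1318 (log2 change 0.79 ± 0.13 SE, limma adjusted p = 0.00694), with no overlap and the highest values in 24-month libraries 1 and 2. C1qb and C1qc moved alike (0.84 and 0.84, limma adjusted p = 0.0125 and 0.0122). Ms4a7, a macrophage tetraspanner, was read at 45.9, 72.3, 98.2 and 89.6 and 259, 179, 140 and 161 (log2 change 1.28 ± 0.25 SE, limma adjusted p = 0.0125), and Slamf8, a receptor of activated myeloid cells, at 35.0, 31.8, 57.5 and 55.7 and 179, 324, 90.2 and 146 (log2 change 1.91 ± 0.40 SE, limma adjusted p = 0.016). Each had separate groups, which for Slamf8 was a condition of naming. C3ar1, the receptor of complement fragment C3a, and Ccl8, a monocyte chemokine, rose by 1.03 and 1.31 (limma adjusted p = 0.00694 and 0.0115). C1qa, Ms4a7, C3ar1 and Ccl8 kept their calls without each library, C1qb and C1qc were at 0.0531 and 0.053 without 24-month library 2, and Slamf8 was at up to 0.0609 without 15- or 24-month library 2.

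Alveolar macrophage markers gave 3 of 21 members called higher, against 3.16% of all genes. They were Cd2, Ear2 and Itgax (0.60, 0.55 and 0.68, limma adjusted p = 0.0235, 0.0237 and 0.0212). Cd2 is better known from T cells and Itgax also marks dendritic cells. Marco, a scavenger receptor of alveolar macrophages, was read at 164, 121, 97.3 and 95.6 and 283, 196, 109 and 427, with overlap (log2 change 0.94 ± 0.34 SE, limma adjusted p = 0.104). Gpnmb, a glycoprotein of lipid-loaded macrophages, was read at 348, 410.5, 1220 and 404 and 666, 705, 501 and 1884 with overlap (log2 change 0.66 ± 0.40 SE, limma adjusted p = 0.319). Cst7 and Ctss, a cathepsin inhibitor and a cathepsin of activated macrophages, changed by 1.14 and 0.78 (limma adjusted p = 0.0204 and 0.0344). All 5 called genes here lost their calls without 15- or 24-month library 2, and the alveolar macrophage count was then 0, and 1, 2 and 1 without 15-month libraries 1 and 3 and 24-month library 1 (highest adjusted p = 0.0911, 0.0804, 0.0707, 0.0825 and 0.124 in the order named). The list of lipid-associated and activated macrophages, with 3 of 23 called (Cst7, Ctss and Itgax), had 0 without 15-month library 1 or 2 or 24-month library 2, 2 without 15-month library 3 or 4 or 24-month library 4, 1 without 24-month library 1 and 5 without 24-month library 3.

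T cell genes rose, 14 of 30 members with none lower and a median of 0.75, and natural killer and cytotoxic genes with 8 of 20 and a median of 1.18. Their summed levels were 3316 to 4036 and 987 to 1384 normalised reads at 15 months and 4397 to 8071 and 1930 to 4104 at 24 months. Ccl5, a chemokine of memory T and natural killer cells, was read at 271, 201, 195 and 368 at 15 months and at 863, 1144, 629.5 and 667 at 24 months (log2 change 1.68 ± 0.27 SE, limma adjusted p = 0.00694). Lck, the kinase of the T cell receptor, was read at 201, 195, 206 and 239.7 and 432, 509, 376 and 320.5 (log2 change 0.94 ± 0.15 SE, limma adjusted p = 0.00533). Ages did not overlap for either. Nkg7, a cytotoxic granule gene, was read at 75.5, 65.0, 64.9 and 110.1 and 199.5, 323, 168 and 170.4 (log2 change 1.42 ± 0.27 SE, limma adjusted p = 0.0122), and Eomes, the transcription factor of cytotoxic cells, at 39.4, 27.5, 33.4 and 44.8 and 115, 147, 91.0 and 80.7 (log2 change 1.54 ± 0.33 SE, limma adjusted p = 0.0185). Cd5, Lat, Il2rb and Ctsw rose by 1.11, 0.85, 1.01 and 1.27 (limma adjusted p = 0.0125, 0.0179, 0.0181 and 0.0191).

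Ccl5 and Lck kept their calls without each of the 8 libraries, while Nkg7 went to 0.05 without 24-month library 2 and Eomes to 0.0764 without 15- or 24-month library 2. The T cell count was 3 without 24-month library 2, 6 without 15-month library 2 or 24-month library 1, 7 without 15-month library 1 and 8 without 15-month library 3, and the natural killer count was 2, 2, 5, 3 and 3 in the same order of libraries (24-month library 2, 15-month library 2, 24-month library 1, 15-month libraries 1 and 3). With other tools and filters the T cell count ran from 11 to 22 and the natural killer count from 7 to 13. Themis, a T cell signalling gene, was the 1 member called in the list of thymus, thyroid and oesophagus markers (1.33, limma adjusted p = 0.0162, and no longer called without 15- or 24-month library 2, at most 0.0677), and that list summed to 284 to 352 and 359 to 439.8. B cell markers had 1 of 21 called higher, near the 3.16% of all genes. It was Blk (0.87, limma adjusted p = 0.0314, lost without 15-month libraries 2, 3 or 4 or 24-month libraries 1, 2 or 3, at most 0.1). Immunoglobulin and plasma cell genes had none called by limma, with 1 higher and 1 lower at an unadjusted p under 0.05, none by edgeR and 1 lower by DESeq2 or limma-voom, and Igkc overlapped, at 23450, 24800, 28800 and 9831 and 14360, 17840, 27080 and 13180.

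In the list of blood and haemoglobin genes 3 of 13 members were called higher and none lower, and the list's median was -0.21. The 3 are known from platelets, a grouping made after the values were seen and not tested as a list. Itga2b, a subunit of the fibrinogen receptor, was read at 865, 387, 607 and 517 at 15 months and 1401, 1987, 1227 and 1571 at 24 months (log2 change 1.42 ± 0.26 SE, limma adjusted p = 0.00989), Gp9 at 239.5, 107, 135 and 139 and 405, 576, 332 and 359.8 (log2 change 1.46 ± 0.28 SE, limma adjusted p = 0.0125), and Pf4, a granule chemokine, at 441, 215, 354 and 288 and 637, 895, 601 and 686 (log2 change 1.15 ± 0.24 SE, limma adjusted p = 0.017). Each separated the ages, with 15-month library 1 the highest of its age and 24-month library 2 the highest of its own. Gp1bb and Nrgn, platelet genes named after their values were seen, rose by 1.70 and 1.38 (limma adjusted p = 0.00923 and 0.0133), and Ppbp did not pass the test (0.97, 0.0533). The whole list, which haemoglobin dominates, summed to 79070 to 126000 normalised reads at 15 months and 65220 to 118100 at 24 months. Itga2b and Gp1bb kept their calls without each library, Gp9 and Nrgn were at 0.0531 and 0.0546 without 24-month library 2, and Pf4 was at up to 0.0697 without 15- or 24-month library 2.

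**Figure D4:**
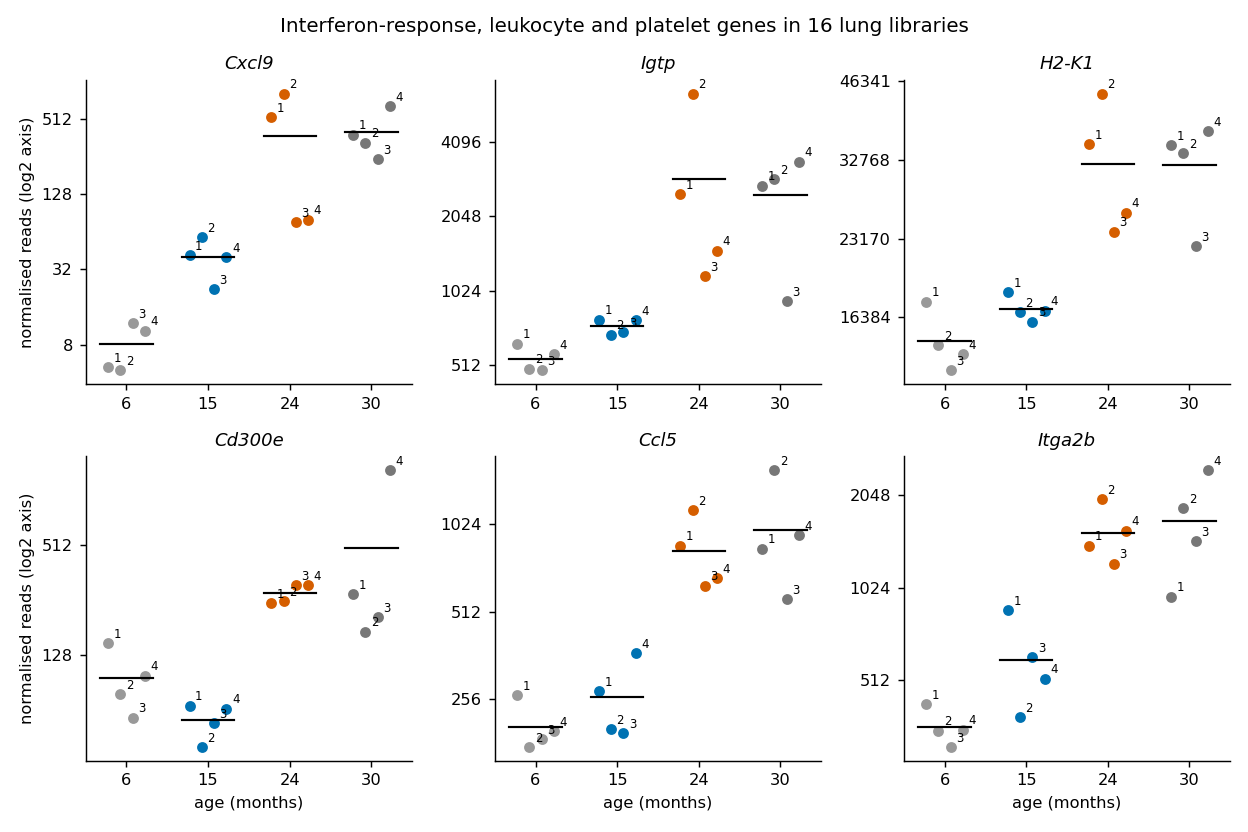
Normalised reads (log2 axis) of the interferon-response genes Cxcl9 and Igtp, the class I gene H2-K1, the monocyte gene Cd300e, the lymphocyte chemokine Ccl5 and the platelet gene Itga2b in the 16 lung libraries by age in months. Points are libraries with their number, blue at 15, orange at 24 and grey at 6 and 30 months, and short lines are means of 4. All 24-month libraries lie above all 15-month ones, and replicates 1 and 2 stand apart for Cxcl9 (529 and 815 against 76.4 and 79.6) but not for Cd300e.

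Ribosomal protein genes rose by small amounts, and 31 of 77 were called higher and none lower, with a median of 0.23. Groups did not overlap for 64 of the 77, against 17.8% of all genes tested. Rpl3 was read at 7312, 7334, 7410 and 7393 at 15 months and 9057, 10020, 9294 and 8894 at 24 months (log2 change 0.34 ± 0.06 SE, limma adjusted p = 0.00955), and Rpl6 at 7059, 7121, 6869 and 7143 and 8493, 9156, 8376 and 8433 (log2 change 0.29 ± 0.06 SE, limma adjusted p = 0.0128). All 15-month libraries lay within a narrow band below the 24-month ones. The count was 1 without 24-month library 2, 2 without 15- or 24-month library 1, 4 without 15-month library 2 or 3 and 19 without 15-month library 4, and Rpl3 alone of the named ones kept its call throughout (Rpl6 was at 0.0541 without 24-month library 2). With other tools and filters the count ran from 13 without a filter on low genes to 65 with sample weights. Ribosomal protein genes have many processed copies in the genome, so their reads are uncertain.

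A few replication genes rose. In the cell cycle list 5 of 40 members were called higher and none lower, against 3.16% of all genes called higher, with a median of 0.48. Mcm6, a subunit of the replicative helicase, was read at 481, 457, 508 and 487 and 601, 719.7, 642 and 618 (log2 change 0.41 ± 0.07 SE, limma adjusted p = 0.00989), and Mki67, a marker of cycling cells, at 559.9, 518, 538 and 514 and 812, 1048, 676 and 827. Mki67 did not overlap between ages and missed the threshold (log2 change 0.64 ± 0.18 SE, limma adjusted p = 0.0523). Aurkb, a mitotic kinase, changed by 0.93 ± 0.24 SE (limma adjusted p = 0.0328). Mcm6 kept its call without each library, Aurkb lost its own without any 15-month library or 24-month library 1 or 2 (highest 0.121), and the count was 1 without 24-month library 2 and 2 without any one of the 15-month libraries or 24-month library 1. With other tools and filters it ran from 2 to 10.

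Few epithelial and endothelial genes passed the test. Among these lists, type 1 cells and aerocyte endothelium had the largest shares of members called lower. Alveolar type 2 markers had 1 of 20 members called, the desaturase Scd1 (-0.53, limma adjusted p = 0.0471), which lost its call without any one of the 8 libraries (at most 0.12), with TMM rescaling, without a filter and with the replicate block (0.0572). Sftpc was read at 181300, 166600, 182400 and 178100 and 154300, 144100, 164600 and 174800, with 24-month library 4 inside the 15-month range (log2 change -0.15 ± 0.11 SE, limma adjusted p = 0.428). Alveolar type 1 markers had 4 of 20 called lower, against 2.57% of all genes, with Cav1 and Hopx at -0.24 and -0.25 (limma adjusted p = 0.0392 and 0.0479). Ager was read at 28070, 26060, 25580 and 26870 and 24320, 23690, 25090 and 22560, lower in each 24-month library but without a call (log2 change -0.16 ± 0.07 SE, limma adjusted p = 0.2). The type 1 count was 0 without 15-month library 1 or 2 or 24-month library 2, 1 without 15-month library 4 or 24-month library 1 or 4, and 2 without 15-month library 3. With other tools and filters it ran from 1 to 4. Hopx and Rtkn2 lost their calls with edgeR and TMM, with TMM rescaling and without a filter, Rtkn2 also with edgeR and RLE, and Cav1 without a filter. Of 20 club and secretory airway markers 1 was called higher and 2 lower, Cyp4b1 and Aldh3a1 (-0.30, limma adjusted p = 0.0383). Of 30 ciliated cell markers 1, Cfap43, was called higher (0.32, limma adjusted p = 0.0347) and none lower. Aldh3a1 and Cfap43 lost their calls without any one of the 8 libraries (at most 0.0981 and 0.0984). Scgb1a1 and Foxj1, of club and ciliated cells, overlapped (-0.02 ± 0.13 SE and -0.09 ± 0.12 SE, limma adjusted p = 0.941 and 0.693). Pecam1, shared by endothelial cells, differed by -0.08 ± 0.05 SE (limma adjusted p = 0.393). Fibin and Esam, of capillary endothelium, fell by 0.55 and 0.33 (limma adjusted p = 0.0254 and 0.0199, up to 0.0968 and 0.065 with a library left out, 24-month library 2 among those that ended both calls). In the aerocyte endothelium list 2 of 12 members, Fibin and Cyp4b1, were called lower. No member had a positive change, and the median was -0.24. Cyp4b1 (-0.36, limma adjusted p = 0.0346) lost its call without any one of the 8 libraries (at most 0.113).

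Neutrophil genes had a low median, -0.85, with none of 20 called by limma and 5 lower and none higher at an unadjusted p under 0.05. DESeq2 called 2 of them lower, and edgeR and limma-voom none. Their summed level ran from 17660 to 63980 normalised reads within the 15-month age and from 11240 to 44440 within the 24-month age. S100a8, a neutrophil granule protein gene named after its values were seen, was read at 4305, 12930, 1674 and 3176 at 15 months and 1104, 1360, 1179 and 7714 at 24 months, with 15-month library 2 and 24-month library 4 the highest (log2 change -1.11 ± 0.59 SE, limma adjusted p = 0.265). The ranges of both ages overlapped. Of 56 lists, 14 had no called member.

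Changes over the 3 intervals between the 4 ages were set side by side. The comparisons of neighbouring ages share libraries, so in this paragraph they are given as values. Hspb1 changed by 1.14 from 6 to 15 months, by -2.02 from 15 to 24 and by -0.13 from 24 to 30. Hsp90ab1 changed by 0.63, -1.05 and -0.02, and Rbm3 by -0.38, 0.93 and 0.24, over the same intervals. Cnn1 changed by -0.06, -1.03 and -0.18, and Cxcl9 by 2.19, 2.54 and 0.72. Median changes of the heat shock list over the intervals were 0.55, -0.88 and 0.10, those of the smooth muscle list -0.16, -0.38 and -0.04, and those of the interferon gamma list 0.14, 1.52 and -0.04.

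A test of the difference between the change from 15 to 24 and that from 6 to 15 months passed for 57 genes, 0.333% of those tested, 12 above 0 and 45 below 0. Hspb1 was among them (difference -3.16 ± 0.36 SE, limma adjusted p = 0.00263), as were Hsp90ab1 (-1.68 ± 0.24 SE, 0.0101), P4ha1 (-1.83 ± 0.28 SE, 0.0138) and, with the opposite sign, Rbm3 (1.31 ± 0.18 SE, 0.0101). Cnn1 and Cxcl9 did not pass (-0.97 ± 0.22 SE with limma adjusted p = 0.0704, and 0.35 ± 1.09 SE with 0.9). The genes named here were chosen by their change from 15 to 24 months, which is itself part of the difference. Their values and p-values for the difference do not allow for that choice. The count moved with single libraries: it was 17, 11, 118 and 26 without 6-month libraries 1 to 4, 2, 3 and 17 without 15-month libraries 1, 2 and 4, 16, 15, 13 and 186 without 24-month libraries 1 to 4, and 36, 135 and 103 without 30-month libraries 1, 2 and 4.

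Against the change from 24 to 30 months, the difference passed for 176 genes (1.03%), 159 with the later change above the earlier one and 17 below. Among the genes named above, those that passed included Hspb1 (1.89 ± 0.36 SE, limma adjusted p = 0.0253), Fgf10 (1.12 ± 0.22 SE, 0.0253) and Pdgfra (0.76 ± 0.16 SE, 0.035). Frmd5 (1.71 ± 0.35 SE, limma adjusted p = 0.03), Plod2 (0.70 ± 0.15 SE, 0.0382), Slc5a3 (2.035 ± 0.444 SE, 0.0385) and P4ha1 (1.23 ± 0.28 SE, 0.0477) passed as well. Hsp90ab1 did not (1.03 ± 0.24 SE, limma adjusted p = 0.0512). All of these genes were chosen by their change from 15 to 24 months in the same libraries, and the p-values do not allow for that. The count of 176 became 5 without 24-month library 2, 31 without 24-month library 3, 111 without 24-month library 1, 87, 74 and 68 without 15-month libraries 1, 2 and 3, 330 without 6-month library 1 and 380 without 30-month library 4.

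The 8 libraries at 30 and 6 months gave the same genes a further reading, with the spread estimated in the same fit. At 30 against 6 months 1837 genes were called higher (10.7% of those tested) and 1479 lower (8.64%). Of the 540 genes called higher at 24 against 15 months, 497 (92%) were positive at 30 against 6 months, against 49.6% of all genes tested, and 316 were themselves called higher and 1 lower. Of the 439 called lower, 357 (81.3%) were negative, against 50.4% of all genes, with 164 called lower and 9 called higher. The median change at 30 against 6 months was 0.65 for the first group and -0.20 for the second.

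By gene group the other ages differed. Of the interferon gamma list 20 of 25 members were called higher at 30 against 6 months. Of the T cell list 24 of 30 were called higher and 1 lower, and of the smooth muscle list 18 of 20 were called lower. In the heat shock list 4 of 20 were called lower and none higher, with a median of -0.27, and the ribosomal protein list had a median of 0.05. Cxcl9 was higher by 5.45 ± 0.63 SE (limma adjusted p = 0.000106), Cnn1 changed by -1.27 ± 0.13 SE (4.33e-05), and Hsp90aa1 did not pass (-0.45 ± 0.17 SE, 0.0801). Hspb1 and Rbm3 did, at -1.01 ± 0.21 SE (0.00395) and 0.78 ± 0.11 SE (0.000288).

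**Figure D5:**
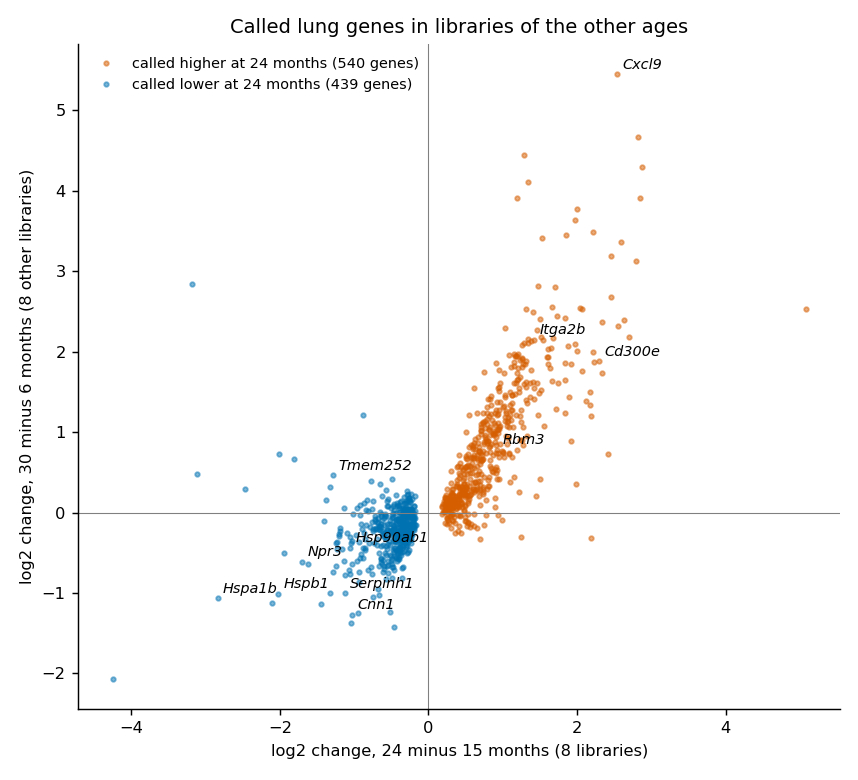
The 979 genes called at 24 against 15 months, with their log2 change there on the horizontal axis and at 30 against 6 months, in 8 other libraries, on the vertical axis. Points are genes, orange if called higher (540) and blue if called lower (439). Of the first, 92% lie above 0 on the vertical axis, and of the second 81.3% lie below it.

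Kidney libraries of the same ages gave a second tissue, normalised in a table of its own, so only differences of changes were tested. The change from 15 to 24 months differed between lung and kidney for 326 of 18115 genes (1.8%), and 91 of the 976 lung-called genes measured in both were among them. Those genes were chosen by their lung change, so nothing is read from that share. The genes named below were also chosen by their lung change, in the same lung libraries. Their p-values for the difference do not allow for that choice. Of the 24 genes with the largest lung changes by the rule above, 3 differed. Hspb1 fell in lung more than in kidney (-2.02 in lung and -0.80 in kidney, difference -1.22 ± 0.30 SE, limma adjusted p = 0.0337), Npr3 was near 0 in kidney (-1.70 in lung and -0.06 in kidney, difference -1.64 ± 0.36 SE, limma adjusted p = 0.0183), and Xirp1 was above 0 there (-1.62 in lung and 0.28 in kidney, difference -1.90 ± 0.46 SE, limma adjusted p = 0.0283). Hsp90aa1 did not pass (-1.23 in lung and -1.11 in kidney, difference -0.12 ± 0.24 SE, limma adjusted p = 0.847), and neither did Rbm3 (0.93 in lung and 0.60 in kidney, difference 0.32 ± 0.16 SE, limma adjusted p = 0.296) or Cxcl9 (2.54 in lung and 0.89 in kidney, difference 1.65 ± 0.82 SE, limma adjusted p = 0.308). Kidney changes of other immune genes, picked after their values were seen, varied. Zbp1, Adgre4, Cd74 and C1qa rose there by 1.65, 1.69, 1.03 and 1.09 (limma adjusted p = 0.0405, 0.0322, 0.00424 and 0.000679). Lck and Ifng, at 0.26 and -0.12, were not called in kidney (limma adjusted p = 0.581 and 0.947). None of these immune genes passed the test of the difference. Des and Pdgfra fell in lung with kidney values on the other side of 0 (-0.60 in lung and 0.28 in kidney, difference -0.88 ± 0.15 SE, limma adjusted p = 0.00393, and -0.41 in lung and 0.48 in kidney, difference -0.89 ± 0.14 SE, limma adjusted p = 0.00178), and Itga2b rose in lung (1.42 in lung and -0.07 in kidney, difference 1.48 ± 0.29 SE, limma adjusted p = 0.00826). The count of genes that differed was 99 without lung 24-month library 2, 192 without lung 24-month library 1, 202, 206 and 203 without lung 15-month libraries 1, 2 and 3, 182 and 170 without kidney 15-month libraries 1 and 4, 140 and 203 without kidney 24-month libraries 3 and 4, and 536 without kidney 30-month library 3.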

How the data were processed

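The values were deposited by the authors as 1 table per tissue of normalised counts per gene, a signal scaled between libraries within a tissue. Per the submitters' processing notes, FastQC, STAR, RSEM, DESeq2 and GRCm39 were used, with roles and versions not given in the sources used here. Libraries were made with Illumina Stranded mRNA Prep from frozen, pulverised tissue, per the labels' protocols. In each lung library 100% of values were whole multiples of 1 read within 0.01 reads, which gave the recovered reads (11.8 to 21.3 M per library). The main test was limma-trend (limma 3.58.1, R 4.3.3) on log2(value + 1), with 1 mean per age over 16 lung libraries, 12 residual degrees of freedom, two-sided, for 17112 of 55285 symbols kept by edgeR's filterByExpr (edgeR 4.0.16, minimum count 10 on recovered reads), with Benjamini-Hochberg adjustment and a threshold of 0.05. The same fit gave the other age contrasts. Kidney entered a joint fit with its own age means.

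Alternatives were edgeR's quasi-likelihood test (TMM or RLE) and DESeq2 (1.42.0) on recovered reads, limma-voom with quality weights, TMM rescaling, no filter, pseudocounts of 0.1 and 5, the replicate number as a block, only the 2 ages in the fit, and each library left out. Scripts were tested on simulated data. Named genes are the 12 highest and 12 lowest log2 changes among called genes with a mean of 50 or more reads and no overlap between ages, leaving out unnamed models, pseudogenes and receptor segments, plus up to 4 called members of each of 56 gene lists, a panel of 16 genes, and the gene with the smallest adjusted p in each direction. Others are said to be named after their values were seen. The comparison and the lists were chosen with earlier results of these data known. List levels are sums of normalised reads, in which abundant and long genes weigh most. Python 3.11.15, pandas 2.3.3 and matplotlib 3.10.9 were used for sequences and figures.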

Additional observations from a re-analysis of the deposited data

Results flagged for a closer look

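Of 318 groups of 4 libraries checked for the named genes, 14 (4.4%) held a library whose gap to the nearest other divided by the group's range exceeded Dixon's critical value for groups of 4, and chance flags about 1 in 20 groups. The flags were thus no more frequent than chance gives. Far above or below is meant against the group's range, also where the gap was small beside the level, as for Hopx. At 24 months replicate 2 was far above the other libraries for Ifit3 (4119 normalised reads, others 1558 to 1855), Ifng (65.8, others 6.87 to 14.2) and Rpl6 (9156, others 8376 to 8493). At the same age replicate 3 was far above for Flnc (213, others 142 to 152) and far below for Akr1b8 (582.3, others 628 to 635), and replicate 4 was far above for Gpnmb (1884, others 501 to 705) and S100a8 (7714, others 1104 to 1360) and far below for Hopx (8045, others 8510 to 8574). At 15 months replicate 3 was far above for Gpnmb (1220, others 348 to 410.5) and Itgax (1546, others 1116 to 1148) and far below for Serpinh1 (6021, others 6872 to 7035). Replicate 4 of that age was far above for Aldh3a1 (486.6, others 442.9 to 448) and far below for Cfap43 (848.5, others 1052 to 1062), and replicate 2 was far below for Cd74 (22650, others 24450 to 24790).

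For 14 named genes the change from 15 to 24 months differed between lung and kidney by limma's test of the difference. All were called in lung, so they were chosen by their lung change in the same libraries, and these p-values do not allow for that. Lung minus kidney was, on the log2 scale, -1.22 for Hspb1 (limma adjusted p = 0.0337), -1.64 for Npr3 (0.0183) and -1.90 for Xirp1 (0.0283). Mesenchymal and growth factor genes gave -0.89 for Pdgfra (0.00178), -0.88 for Des (0.00393), -0.89 for Igfbp3 (0.0324), -1.29 for Igfbp6 (0.00948), -0.68 for Cdkn1c (0.0432), -0.79 for Dkk3 (0.00911) and -0.51 for Igf1r (0.0088), as limma adjusted p-values in brackets. Positive differences were 0.34 for Rpl6 (0.0477), 0.42 for Rpl39 (0.0477), 1.48 for Itga2b (0.00826) and 1.92 for Nrgn (0.0176), also limma adjusted p-values. Causes of these differences were not tested.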

How the results depend on the processing

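All 135 called genes followed by name kept their direction in every setting run, and 100 kept their call in every alternative of tool, scaling, filter, pseudocount, block and ages fitted. With DESeq2, limma-voom with quality weights and no filter on low values the genes called higher numbered 870, 1072 and 337 against 540, and those called lower 779, 837 and 280 against 439, with 694 lower when only the 2 ages were fitted. Leaving out each lung library in turn gave 64 to 729 higher and 80 to 623 lower. Without both 24-month replicates 1 and 2 the counts were 0 and 1, and without both 15-month replicates 1 and 2 they were 2 and 3, settings chosen after seeing the data that leave fewer samples. The difference from the change between 6 and 15 months passed for 92 genes with edgeR and RLE, 377 with DESeq2, 251 with limma-voom and 27 without a filter, against 57, for 2 to 186 with a library left out, and for 3 and 0 without the 24- and the 15-month pair. The difference from 24 to 30 months passed for 680, 340 and 102 genes with DESeq2, limma-voom and no filter, and 91 with values rescaled by TMM, against 176, for 5 to 380 with a library left out, and for 0 and 17 without those pairs. The lung and kidney difference passed for 666, 914 and 194 genes with DESeq2, limma-voom and no filter against 326, and for 99 to 536 with a library left out. Values that changed sign had no call: Eln was 0.03 and became -0.012 with edgeR and TMM, -0.019 with edgeR and RLE, -0.018 with DESeq2, -0.068 with limma-voom, -0.142 to 0.154 with a library left out and -0.353 without 15-month replicates 1 and 2. Ace ran from -0.028 to 0.122 with a library left out, Scgb1a1 was 0.011 with limma-voom, 0.003 with rescaled values and -0.046 to 0.019 with a library left out, and Foxj1 and Igkc were 0.042 and 0.047 without 15-month replicates 1 and 2. The cause of these shifts was not tested, except that no filter tests more genes and left-out libraries leave fewer samples. Samples with the same replicate number did not deviate together (correlations of 0.06, -0.08, 0.13 and -0.01), so the numbers were not taken as pairs. With the replicate block the counts were 570 higher, 477 lower, 97 for the difference from 24 to 30 months and 398 for lung against kidney, and 7 of the 135 named calls were lost. Depth of 11.8 to 21.3 M reads limits genes near the filter of 10 reads, such as Cdkn2a and Ifng.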

Other observations

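Gene groups with few called members gave the following values at 24 against 15 months. Over all genes tested 3.16% were called higher and 2.57% lower. The calls in this section are given as values of single genes and not as results about their lists. In the dendritic cell list 2 of 19 members were called higher, the transcription factor Irf8, read at 769, 815, 889.6 and 956 at 15 months and 1424, 1929, 1098 and 1172 at 24 months (log2 change 0.68 ± 0.16 SE, limma adjusted p = 0.024), and Wdfy4, needed for cross-presentation (0.50, limma adjusted p = 0.0254). Among 36 chemokines and inflammatory cytokines the 3 called higher were Ccl5, Ccl8 and Tnf, and Tnf was read at 55.8, 28.9, 41.7 and 29.1 and 81.3, 95.0, 129 and 93.0 (log2 change 1.37 ± 0.37 SE, limma adjusted p = 0.0404). Of 23 cholesterol synthesis genes 2 were called higher, Dhcr7 (0.44, limma adjusted p = 0.0301) and Lss (0.33, 0.0418). Except for Ccl5 and Ccl8, each of these calls was lost without 24-month replicate 2, with adjusted p-values of up to 0.0804, 0.0943, 0.106, 0.099 and 0.13 for Irf8, Wdfy4, Tnf, Dhcr7 and Lss over the libraries left out. Tnf lost its call without any one of the 8 libraries, and with edgeR (TMM or RLE), no filter and the replicate block (at most 0.0723). Lss also lost its call without a filter (0.0628).

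Lower at 24 months were Angptl4, a secreted lipase inhibitor induced by glucocorticoids and fasting, read at 1052, 980, 1039 and 1025 and 680.5, 509.8, 288 and 477 (log2 change -1.13 ± 0.30 SE, limma adjusted p = 0.0407), and Errfi1, a feedback inhibitor of epidermal growth factor receptor signalling (-0.69, limma adjusted p = 0.0324), the 2 called of 19 genes of the glucocorticoid and metallothionein response. Single matrix genes were called lower in 3 lists, namely Ltbp1, which stores latent TGF-beta (-0.32, limma adjusted p = 0.03), the laminin chain Lamb1 (-0.36, 0.0412) and Ccn2, a matricellular growth factor (-0.63, 0.0418). The Wnt inhibitor relative Dkk3 changed by -0.41 (limma adjusted p = 0.0418). Immediate early genes had none of 27 called by limma, with 3 lower and none higher at an unadjusted p under 0.05, and none by edgeR, DESeq2 or limma-voom. Each of these named calls was lost without 15- or 24-month replicate 2 (adjusted p of up to 0.0988 for Angptl4, 0.0888 for Errfi1, 0.0986 for Ltbp1, 0.111 for Lamb1, 0.133 for Ccn2 and 0.12 for Dkk3). Angptl4 also lost its call with edgeR (TMM or RLE), no filter and the replicate block (at most 0.0583). Lamb1 and Dkk3 lost theirs with TMM rescaling and no filter, and Ccn2 with no filter and the replicate block.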
